A study of Musculus with 2 samples.

Results

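Mammary duct epithelial cells were a small population of the stromal vascular fraction (SVF, the cells left once mature fat cells are removed) of mouse subcutaneous white adipose tissue (sWAT). They were chosen by counts of unique molecular identifiers (UMIs, 1 per captured RNA molecule). A cell needed 500 or more detected genes, at most 10% of UMIs from mitochondrial genes, 1 or more Epcam UMIs, 3 or more UMIs of Krt8, Krt18, Krt5 and Krt14 together, and no UMI of Ptprc or Pecam1. The choice found 406 of 24090 kept cells, 157 in the control library and 249 in the LPCAT3-AKO library. The SVF was profiled as single cells on the 10x Genomics platform, with 1 library per group: Control (genotype WT) and LPCAT3-AKO (genotype LPCAT3 knockout). LPCAT3 is an enzyme that remodels phosphatidylcholine by adding polyunsaturated acyl chains to it. The sample labels give an age of 5 weeks, whereas the series text gives 2 months and CD feeding, so the age is unsettled. The tissue was digested with type I collagenase, spun to remove mature adipocytes and treated to lyse red cells. The promoter driving the deletion, the deleted exons, the strain and the number of mice per library are not stated in the sources used.

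The mammary ducts of the mouse run through this fat depot. A duct has an inner luminal layer, rich in Krt8 and Krt18, and an outer basal layer of contractile myoepithelial cells, rich in Krt5, Krt14 and smooth muscle actin. Luminal cells fall into hormone-sensing cells, which carry the receptors for oestrogen (Esr1), progesterone (Pgr) and prolactin (Prlr), and secretory progenitors, which carry Elf5 and Kit and give rise to milk-making cells. Hormone-sensing cells answer steroid hormones by releasing signals such as amphiregulin (Areg), and prolactin acts through STAT5.

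Since each group is 1 library without replicates, no test between genotypes was possible, and every difference below describes these 2 libraries. Intervals in parentheses are exact 95% intervals that cover counting error only. Gene levels are UMIs per 1000000 UMIs of the summed cells (CPM). A size rule stands in for a test: a gene passes when its level reaches 20 CPM in either library, differs at least 1.5-fold, and has a counting interval of the ratio without 1 in it. The log2 ratio is that of CPM + 1, LPCAT3-AKO over control. The libraries held 12426 control and 11664 LPCAT3-AKO kept cells, with medians of 8366.5 and 8867 UMIs. The epithelial cells were deeper, with medians of 19413 and 22791 UMIs and 4402 and 4906 genes, and summed to 3922433 and 7809520 UMIs. The libraries shared 58 barcodes, none of them between epithelial cells, and 3 epithelial cells had a barcode that also occurs in the other library.

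The epithelial label held against genes that the choice did not use. Krt19, a simple-epithelium keratin, had UMIs in 99.4% of control and 99.6% of LPCAT3-AKO epithelial cells, at 5916 and 5255 CPM against 36.2 and 36.9 CPM in stromal cells (Pdgfra-positive cells without Epcam, Ptprc or Pecam1). Gata3, the transcription factor of luminal fate, had 569 and 555 CPM against 1.47 and 1.49 CPM in stromal cells. Markers of adipocytes summed to 0.255 and 0.256 CPM, with 4 of 6 genes at 0, and mesothelial markers to 0.255 and 0 CPM, with 5 of 6 at 0. The chosen cells carried a median of 116 and 141 UMIs of the 4 keratins, with ranges of 3 to 790 and 4 to 1477. Just inside the threshold, 6 control and 1 LPCAT3-AKO cells had 3 to 5 keratin UMIs. Just outside it, 0 and 3 cells had a keratin sum of 2, and 4 and 8 cells met the keratin threshold with no Epcam UMI. The absence of Ptprc and Pecam1 removed more: 45 control and 82 LPCAT3-AKO cells met the epithelial thresholds but had a UMI of either gene, at medians of 32771 and 25131.5 UMIs.

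No cell was removed as a doublet, and the doublet caller Scrublet marked unequal shares of the libraries' epithelial cells. Set to remove the same share in proportion to library size, it took 66 of 157 control epithelial cells (42.0%, 34.2 to 50.2) and 35 of 249 LPCAT3-AKO ones (14.1%, 9.99 to 19.0). Over all kept cells it took 9.94% and 9.33%. Whether the epithelial cells it took held 2 cells or were single epithelial cells of high score was not tested, so a value without them describes a smaller set of cells and is not a corrected value. Stromal RNA was widespread: 84.1% of control and 89.6% of LPCAT3-AKO epithelial cells had 2 or more UMIs of Pdgfra, Dcn, Col1a1 and Col3a1 together. Counts without the cells that Scrublet took are given beside the gene lists they move most.

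Epithelial cells made up 1.26% (1.07 to 1.48) of kept control cells and 2.13% (1.88 to 2.41) of kept LPCAT3-AKO cells, a ratio of 1.69 (1.38 to 2.08). Without the cells removed by Scrublet the ratio was 2.49, and with Ptprc and Pecam1 not used, where 202 and 331 cells were chosen, it was 1.75. Without cells holding 2 or more stromal or 2 or more macrophage UMIs only 16 cells remained in each library, and the ratio was 1.07. The share of other cells with a keratin UMI was also higher in the LPCAT3-AKO library. Krt8 had a UMI in 3.07% of control and 7.05% of LPCAT3-AKO stromal cells, and in 3.87% and 9.37% of macrophages (cells with Ptprc and Csf1r). How far dissection set these shares was not tested, and the spread between animals is unknown.

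Nearly all the cells were luminal, and the makeup of the libraries did not differ beyond counting error. Basal cells, with more Krt5 and Krt14 than Krt8 and Krt18 UMIs, numbered 1 of 157 (0.637%, 0.0161 to 3.50) in the control and 2 of 249 (0.803%, 0.0974 to 2.87) in the LPCAT3-AKO library. Luminal cells with 1 or more UMIs of Prlr, Pgr or Esr1 numbered 150 (95.5%, 91.0 to 98.2) and 237 (95.2%, 91.7 to 97.5). Luminal cells without a receptor UMI numbered 6 (3.82%, 1.42 to 8.13) and 10 (4.02%, 1.94 to 7.26). Of the 6 control cells 1 had 40 UMIs of Acta2, 1 of Krt17 and 1 of Oxtr against 4 of Krt8 and 0 of Krt18, Krt5 and Krt14, so it was counted as luminal by its keratins while its other markers were myoepithelial. The receptor-positive share of luminal cells was therefore 96.2% and 96.0%, a difference of -0.202 percentage points. The ratio's interval ran from 0.810 to 1.23, but it treats the counts as rates and is too wide for shares this high. The receptor-negative cells were shallow, with medians of 6296.5 and 4847.5 UMIs, against 19860 and 23804 in receptor-positive cells.

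The 3 basal cells carried myoepithelial genes that the choice did not use. The control basal cell had 55 UMIs of Acta2 (smooth muscle actin), 4 of Krt17 and 0 of Oxtr (the oxytocin receptor, through which these cells contract). The LPCAT3-AKO basal cells had 171 and 316 Acta2 UMIs, 13 and 60 Krt17 UMIs and 9 and 7 Oxtr UMIs. All 3 cells had 0 UMIs of Prlr, Pgr and Esr1. The genes highest in basal over luminal cells in both libraries were Il17b, Ecrg4, Igfbp2, Acta2, Myl9 and Cxcl14. The control basal cell rests on 3 Krt5 UMIs against 1 Krt8 UMI, and it had 8 Mki67 UMIs. With the Epcam requirement dropped, cells with 3 or more Krt5 and Krt14 UMIs in excess of Krt8 and Krt18 numbered 1 and 5. Genes were not compared between libraries in the basal or receptor-negative cells, which held under 20 cells each.

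Almost every cell in both libraries was hormone-sensing by its receptors. Prlr had a UMI in 93.6% and 94.4% of cells, Pgr in 86.0% and 84.7%, and Esr1 in 72.0% and 74.7%. All 3 receptors were found together in 105 of 157 (66.9%) and 172 of 249 (69.1%) cells. As a background, 5.00% and 5.79% of stromal cells had a Prlr UMI, at medians of 9638 and 9314 UMIs. Esr1 and Pgr are also genes of fat stroma, and 46.9% and 44.4% of stromal cells had an Esr1 UMI and 29.8% and 19.3% a Pgr UMI. After each cell was thinned to 3000 UMIs, Prlr was found in 92.1% and 91.5% of epithelial cells, Pgr in 63.8% and 52.4% and Esr1 in 22.4% and 20.3%.

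**Figure D1:**
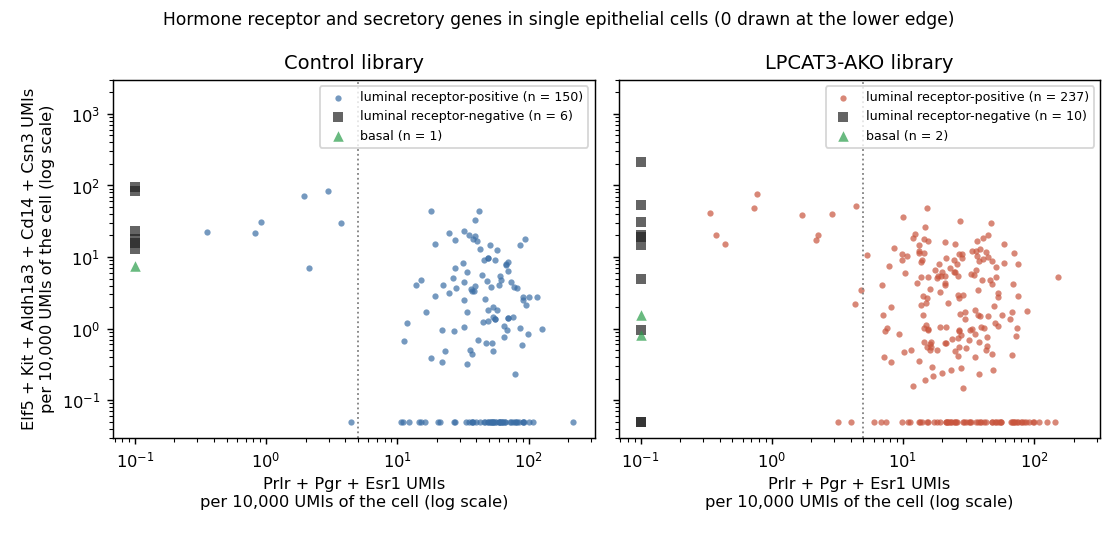
Each point is 1 epithelial cell, the control library on the left and the LPCAT3-AKO library on the right; the horizontal axis gives Prlr, Pgr and Esr1 UMIs and the vertical axis Elf5, Kit, Aldh1a3, Cd14 and Csn3 UMIs, both per 10000 UMIs of the cell on log scales, with 0 drawn at the edge. Most cells lie to the right of the dotted line at 5 receptor UMIs per 10000, and 15 control and 26 LPCAT3-AKO cells lie to its left, most of them high on the vertical axis.

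The level of receptor RNA separated the cells more sharply than its presence. A split at 5 receptor UMIs per 10000, chosen after the values were seen, left 15 control (9.55%, 5.45 to 15.3) and 26 LPCAT3-AKO cells (10.4%, 6.94 to 14.9) below it. Between 2.5 and 5 lay 3 and 6 cells, and between 5 and 10 lay 0 and 17, so the split is less clean in the LPCAT3-AKO library. The receptor-low cells, which include the basal ones, were higher in secretory progenitor genes. Kit, the stem cell factor receptor of these progenitors, had 587 CPM in receptor-low and 92.5 CPM in receptor-high control cells, and 308 and 82.9 CPM in the LPCAT3-AKO library. Elf5, the transcription factor of the milk lineage, had 225 against 75.0 CPM in the control and 119 against 44.0 CPM in the LPCAT3-AKO library. Among luminal cells the genes leading the receptor-low group in both libraries included Apod, Rbp7, Trf, Kcnn4 and Wfdc18. Wfdc18, a small secreted milk-type protein, had 4326 CPM there against 790 CPM in receptor-high control cells, and 5378 against 1183 CPM in the LPCAT3-AKO library. Leading the receptor-high group, besides Pgr, which the split itself used, were Ido1, Tph1, Aoc1, Slc7a2 and Slc5a5. Tph1, which makes serotonin, had 153 and 125 CPM in receptor-high cells and 0 in receptor-low luminal cells of both libraries.

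The 2 programmes were not exclusive. Cells with 10 or more receptor and 10 or more secretory UMIs per 10000 numbered 16 of 157 control cells (10.2%, 5.94 to 16.0) and 29 of 249 LPCAT3-AKO cells (11.6%, 7.94 to 16.3). Elf5 had a UMI in 48.4% and 40.2% of epithelial cells, Kit in 41.4% and 39.4%, and Csn3 (kappa-casein) in 33.1% and 39.8%. These shares depend on depth. After thinning to 3000 UMIs they were 19.1% and 13.8% for Elf5, 24.3% and 18.3% for Kit, and 21.7% and 23.2% for Csn3. In stromal cells, not thinned and at medians of 9638 and 9314 UMIs, Elf5 was found in 0.117% and 0.0765%. Csn3 was found there in 0.313% and 0.478%, and both were far below the epithelial cells. Cd14, also part of the secretory sum, was found in 43.9% and 55.4% of epithelial cells. It was also found in 11.6% and 9.02% of stromal cells and in 86.6% and 87.4% of macrophages. The part of other cells' RNA in the secretory sum was not tested. Whether single barcodes with both programmes held 2 cells was not tested.

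Of 6249 genes tested over all epithelial cells, the LPCAT3-AKO library had 207 (3.31%) at a higher and 217 (3.47%) at a lower level, 6.79% in all. In the receptor-positive luminal cells alone it was 212 of 6228 (3.4%) higher and 228 (3.66%) lower, 7.06% in all. The median log2 ratio of all tested genes was -0.05 in both sets. These percentages are the background against which each gene list below is read. They depend on the cells used: without the cells removed by Scrublet 10% of tested genes were higher and 9.83% lower, without dividing cells 3.77% and 3.54%, and with Ptprc and Pecam1 not used 4.07% and 2.75%.

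The prolactin receptor was lower in the LPCAT3-AKO epithelium, although as many cells carried it. Prlr had 3917 CPM (3855 to 3979) in control cells and 2275 CPM (2242 to 2309) in LPCAT3-AKO cells, a ratio of 0.581 (0.568 to 0.594) and a log2 ratio of -0.78. In single control cells its level ran from 0 through a median of 41.1 to 210 UMIs per 10000. In LPCAT3-AKO cells it ran from 0 through a median of 20.5 to 143 UMIs per 10000. The ranges of single cells overlapped widely while the quartiles shifted, from 23.3 and 58.8 in the control to 10.3 and 35.6. Because Prlr is among the genes of the receptor split, its difference is given over all epithelial cells, which were not chosen by it. Prlr was low in dividing cells (those with 2 or more UMIs of Mki67 and Top2a together), which were more frequent in the LPCAT3-AKO library. Within dividing cells the medians were 17.6 and 12.1, and within the others 44.8 and 28.3, so the LPCAT3-AKO library was lower in both. The log2 ratio was -0.59 without dividing cells and -1.16 without the cells removed by Scrublet. In stromal cells Prlr had 6.44 and 7.69 CPM and did not pass the size rule.

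**Figure D2:**
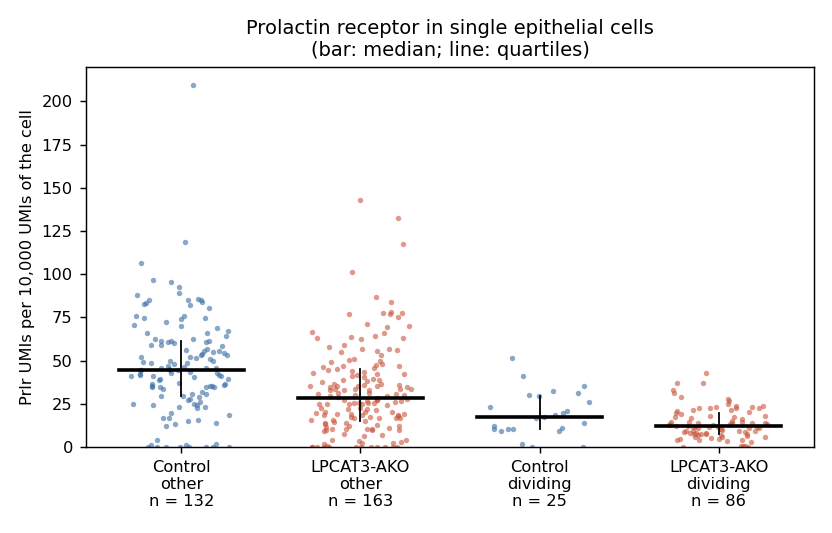
Prlr UMIs per 10000 UMIs (vertical axis) in single epithelial cells, by library and by whether the cell had 2 or more Mki67 and Top2a UMIs (dividing) or not (other); bars are medians and lines run between the quartiles. The LPCAT3-AKO medians, 28.3 in other and 12.1 in dividing cells, lie below the control medians of 44.8 and 17.6, with wide overlap of single cells.

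Among genes of prolactin signalling Elf5 and Socs3 passed the size rule besides Prlr. Of 16 listed genes 10 were tested, and 0 were higher and 3 lower, against 3.31% and 3.47% of all tested genes. The median log2 ratio was -0.48 against -0.05 for all genes. Scrublet removal left 2 of 10 higher and 6 lower, against 10% and 9.83% of all tested genes. Elf5, a target of prolactin signalling, had 81.1 CPM (72.4 to 90.5) and 47.6 CPM (42.9 to 52.7), a ratio of 0.588 (0.505 to 0.685). Socs3, an inhibitor of cytokine receptors, had 463 and 287 CPM, a log2 ratio of -0.69. The Socs3 difference did not hold: it was 0.61 without the cells removed by Scrublet and -0.14 without dividing cells, and stromal Socs3 had a log2 ratio of 1.17. The signal transducers Stat5a and Stat5b, named here after their values were seen, had 182 and 124 CPM and 57.9 and 41.1 CPM and did not pass. Cish and Socs2, inhibitors induced by STAT5 and likewise named afterwards, had 59.4 and 42.5 CPM and 59.4 and 46.7 CPM and did not pass.

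Most other genes of hormone-sensing cells did not pass the size rule, as was true of all tested genes, of which 6.79% passed. Of 15 tested genes in that list 1 was higher and 1 lower, with a median log2 ratio of -0.19. Pgr had 364 CPM (345 to 383) in control cells and 271 CPM (259 to 282) in LPCAT3-AKO cells, and Esr1 had 98.7 and 80.2 CPM, and neither passed the size rule. Foxa1, the factor that opens chromatin for the oestrogen receptor, had 190 and 166 CPM. Areg, the growth factor that carries the oestrogen signal to neighbouring cells, had 3042 CPM (2988 to 3098) and 2977 CPM (2938 to 3015). Wnt4, the progesterone-induced signal, had 189 and 166 CPM, and Stc2, a secreted glycoprotein, had 418 and 416 CPM. Tnfsf11 (RANKL), the other progesterone-induced signal, had 4 UMIs over all control cells and 0 over all LPCAT3-AKO cells. The gene past the size rule in the higher direction was Igf1r, the IGF receptor, with 13.0 CPM (9.68 to 17.1) and 20.7 CPM (17.7 to 24.2), and it did not pass in receptor-positive cells.

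Luminal identity genes mostly did not pass either, again as for all tested genes (6.79% past the rule). Of 18 tested luminal genes 1 was higher and 0 lower, with a median log2 ratio of -0.01. Krt8 had 3680 and 3653 CPM and Krt18 3232 and 3289 CPM; both belong to the genes that chose the cells and are given as a description. Wfdc2, a secreted protease-inhibitor-like protein, had 2210 and 1787 CPM and did not pass. Cldn4, a tight junction claudin, was the gene that rose past the rule, from 155 CPM (143 to 168) to 255 CPM (244 to 266), with UMIs in 72.6% and 83.9% of cells.

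Secretory progenitor genes moved in both directions. Of 15 tested genes 2 were higher and 2 lower, against 3.31% and 3.47% of all tested genes, with a median log2 ratio of -0.11. Csn3 had 220 CPM (206 to 235) in control cells and 358 CPM (345 to 372) in LPCAT3-AKO cells, but its log2 ratio of 0.70 became 0.18 as a mean over cells and 0.18 without dividing cells. Barx2, a homeobox factor, had 20.7 and 32.5 CPM. Elf5 was lower as given above, and so was Btn1a1 (butyrophilin, a protein of the milk fat globule membrane), with 37.2 CPM (31.4 to 43.8) and 8.20 CPM (6.31 to 10.5). Wfdc18 had 919 and 1355 CPM, a ratio of 1.48 (1.42 to 1.53), and passed only in receptor-positive cells, with 887 and 1337 CPM. Lcn2 (lipocalin) had 560 and 549 CPM, and Kit had 113 and 93.7 CPM. Scrublet removal left 6 of 15 higher and 3 lower, against 10% and 9.83% of all tested genes. Without dividing cells it was 0 and 2, against 3.77% and 3.54%. Unlike Csn3, the milk protein genes Csn1s1, Lalba and Wap were close to undetected. Csn1s1 had 3.82 and 10.8 CPM, Lalba had 7.39 and 1.28 CPM, and Wap had 1 and 2 UMIs. Csn2 had 29 UMIs, all from 3 control cells, and 0 UMIs in the LPCAT3-AKO library.

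More of the LPCAT3-AKO epithelial cells were dividing. Cells with 2 or more UMIs of Mki67 and Top2a, which mark cycling cells, numbered 25 of 157 control cells (15.9%, 10.6 to 22.6) and 86 of 249 LPCAT3-AKO cells (34.5%, 28.6 to 40.8). The ratio was 2.17 (1.38 to 3.54). After thinning to 3000 UMIs, which left out 5 control and 3 LPCAT3-AKO cells, it was 10 of 152 (6.58%) and 37 of 246 (15.0%), a ratio of 2.29 (1.11 to 5.16). Dividing cells were deep, with medians of 36466 and 35771 UMIs against 16632 and 17859 in the others, and held 30.9% and 51.4% of epithelial UMIs. The doublet caller removed 20 of 25 dividing control cells but 13 of 86 dividing LPCAT3-AKO cells. The shares without the removed cells were 5.49% and 34.1%, a ratio of 6.21 (2.54 to 19.7). With Ptprc and Pecam1 not used they were 18.8% and 37.2%. The same count gave 0.313% and 1.22% in stromal cells, 8.82% and 15.1% in macrophages and 6.45% and 4.53% in endothelial cells (cells with Pecam1 and Cdh5), so it was also higher in the LPCAT3-AKO library in stromal cells and macrophages.

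**Figure D3:**
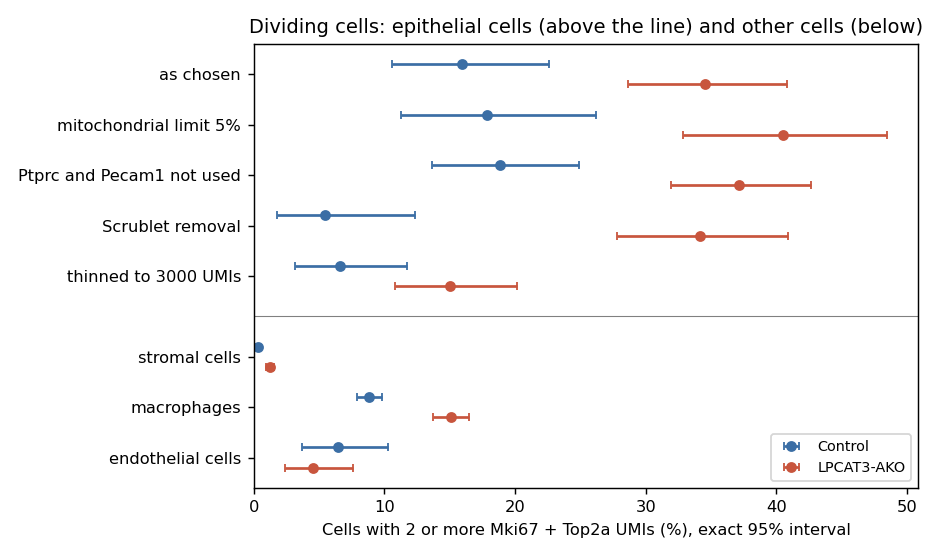
Percentage of cells with 2 or more Mki67 and Top2a UMIs (horizontal axis) in the control (blue) and LPCAT3-AKO (red) libraries, with exact 95% intervals; epithelial cells under 5 settings stand above the line and other cells, as chosen, below it. The epithelial share is higher in the LPCAT3-AKO library in each setting drawn, from 6.58% against 15.0% after thinning to 5.49% against 34.1% with Scrublet removal.

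Division genes were higher in the LPCAT3-AKO epithelium. All 24 listed genes were tested, and 13 were higher and 0 lower, against 3.31% and 3.47% of all tested genes. The median log2 ratio was 0.63. Stmn1 (stathmin, which destabilises microtubules) had 174 CPM (161 to 187) and 302 CPM (290 to 315). Hmgb2, a chromatin protein of cycling cells, had 348 and 577 CPM, Ube2c, a ubiquitin enzyme of mitotic exit, 85.7 and 139 CPM, and Cdk1, the mitotic kinase, 39.3 and 69.8 CPM. Mki67 and Top2a themselves, which define the dividing cells and lie outside the naming rule, had 106 and 142 CPM and 120 and 159 CPM and did not pass. Once the cells taken by Scrublet, among them 20 of 25 dividing control cells, were left out, 24 of 24 were higher, and with Ptprc and Pecam1 not used 6 of 24 were. Without dividing cells 6 of the listed genes were tested and none passed in either direction, with a median log2 ratio of 0.15. That choice itself takes away most division RNA, with Cdk1 at 2.21 and 2.37 CPM there, so nothing is concluded from this count.

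Among genes open to naming, the largest falls were in genes of varied function. Besides Btn1a1 they included Cdh13 (T-cadherin, a receptor for adiponectin), with 51.0 CPM (44.2 to 58.6) in control cells and 12.3 CPM (9.96 to 15.0) in LPCAT3-AKO cells, with UMIs in 45.9% and 20.5% of cells. Rasef, a Rab-type GTPase, had 143 CPM (132 to 156) and 46.0 CPM (41.3 to 51.0), with UMIs in 73.2% and 59.0% of cells. Fxyd2, a regulatory subunit of the sodium pump, had 683 CPM (657 to 709) and 255 CPM (244 to 267). Gsta4, a glutathione transferase for products of lipid peroxidation, had 96.4 and 31.8 CPM, and Timp4, a metalloproteinase inhibitor, had 31.1 and 10.5 CPM. Dmbt1, a secreted mucosal glycoprotein, had 133 and 41.5 CPM, but 5 cells held 73.6% of its control and 87.0% of its LPCAT3-AKO UMIs, and its log2 ratio of -1.66 became -0.48 as a mean over cells. The other 6 genes had log2 ratios of -1.02 or lower as a mean over cells, and between -0.83 and -1.68 without dividing cells. Without the cells removed by Scrublet Gsta4 was at -0.72 and the other 5 were between -1.97 and -2.56.

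Several of the large rises were in genes carried by a minority of cells. Sftpd (surfactant protein D, a secreted lectin of innate defence) had 8.41 CPM (5.79 to 11.8) in control cells and 45.8 CPM (41.2 to 50.8) in LPCAT3-AKO cells, with UMIs in 9.55% and 24.9% of cells. Stromal cells had 0 and 0.0980 CPM of Sftpd. Tnip3, an inhibitor of NF-kB signalling, had 4.33 and 26.0 CPM, and 5 cells held 64.0% of its LPCAT3-AKO UMIs. Olfm4 (olfactomedin, a secreted glycoprotein) had 19.4 and 64.7 CPM, and Apod (a lipid-binding lipocalin) 16.6 and 47.0 CPM. With Ptprc and Pecam1 not used the log2 ratio of Olfm4 was 0.36 in place of 1.69 and that of Apod 0.55 in place of 1.45. Nusap1, a spindle protein, had 24.7 and 57.4 CPM, and a log2 ratio of 5.20 in place of 1.18 without the cells removed by Scrublet. Sparc, a matrix glycoprotein, had 134 and 314 CPM, and stromal cells had 5898 and 7309 CPM of it.

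**Figure D4:**
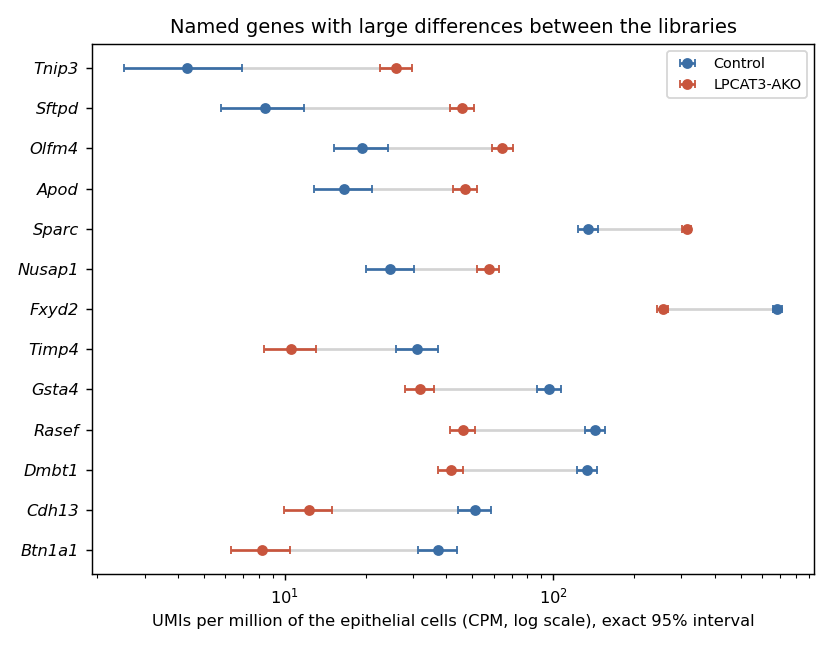
CPM on a log axis of 6 genes with high and 7 with low log2 ratios among those named by size, over all epithelial cells, in the control (blue) and LPCAT3-AKO (red) libraries, with exact 95% Poisson intervals. Tnip3 moves from 4.33 to 26.0 CPM at the top, and Btn1a1 from 37.2 to 8.20 CPM at the bottom.

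The targeted gene itself did not pass the size rule. Lpcat3 had 57.6 CPM (50.3 to 65.6) in control cells and 60.8 CPM (55.5 to 66.5) in LPCAT3-AKO cells, a ratio of 1.06 (0.899 to 1.24), against 26.7 and 29.6 CPM in stromal cells. A tag outside the deleted part would still be counted, so this does not check the deletion, and the sources used here do not say in which cells the gene was deleted. Of 13 tested genes of phosphatidylcholine synthesis and remodelling 0 were higher and 1 lower, against 3.31% and 3.47% of all tested genes. Their median log2 ratio was -0.23. The lower gene was Chka (choline kinase, which starts phosphatidylcholine synthesis), with 298 CPM (281 to 315) and 146 CPM (137 to 154), a ratio of 0.489 (0.450 to 0.531). Its median was 5 UMIs per control cell and 3 per LPCAT3-AKO cell. Chka also fell in stromal cells, from 26.1 to 15.6 CPM. In dividing epithelial cells it had 128 and 107 CPM, and in the others 374 and 186 CPM.

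Genes of milk fat and triglyceride synthesis moved in both directions, with 2 of 21 tested genes higher and 4 lower. Among all tested genes 3.31% were higher and 3.47% lower. The median log2 ratio of the list was 0.07. Lower besides Btn1a1 were 3 genes of triglyceride assembly: Dgat2, the acyltransferase of the last step, with 97.9 and 61.7 CPM, Gpat4, the acyltransferase of an early step, with 68.1 and 42.4 CPM, and Lpin1 (lipin, a phosphatidate phosphatase) with 45.6 and 23.7 CPM. Higher were Lpl (lipoprotein lipase) with 33.9 and 62.5 CPM and Fabp5 (a fatty acid-binding protein) with 14.0 and 28.2 CPM. In the epithelium 5 cells held 53.4% of control and 57.8% of LPCAT3-AKO Lpl UMIs, and 69.1% and 46.4% of Fabp5 UMIs. Stromal cells had 1009 and 1698 CPM of Lpl, which passed there too. Without dividing cells 0 of 19 tested genes of this list were higher and 3 lower, against 3.77% and 3.54% of all tested genes. There Lpl had 29.5 and 36.4 CPM, Fabp5 9.59 and 9.22 CPM and Dgat2 121 and 87.2 CPM, and these 3 genes no longer passed. Of 11 tested genes of cholesterol synthesis 0 passed in either direction, with a median log2 ratio of 0.09, and 3 of 11 were higher under Scrublet removal.

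Basement membrane and integrin genes had 2 of 16 higher and 2 lower, against 3.31% and 3.47% of all tested genes. Their median log2 ratio was -0.06. Itga6, the laminin-binding integrin chain, had 365 CPM (346 to 384) and 232 CPM (222 to 243), and Lama5, a laminin chain of epithelial basement membranes, had 165 and 101 CPM. Both were low in stromal cells, where Itga6 had 1.19 and 0.980 CPM and Lama5 1.15 and 0.686 CPM. The higher genes were Col4a2 with 13.0 and 20.2 CPM and Hspg2 (perlecan) with 12.7 and 22.3 CPM, which stromal cells held at 255 and 399 and at 313 and 398 CPM. Without dividing cells this list had 0 of 16 higher and 1 lower. Of 20 tested junction genes 1, Cldn4, was higher and 0 lower, against 4 and 1 with Scrublet removal and 4 of 21 and 0 without dividing cells.

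Contractile genes had 5 of 6 tested higher, against 3.31% of all tested genes, and 3 of the 5 rested on the basal cells. Acta2 had 27.5 and 64.8 CPM, and the 2 basal LPCAT3-AKO cells supplied 487 of its 506 UMIs in that library. They also supplied 353 of 431 Tagln UMIs and 148 of 193 Tpm2 UMIs (transgelin and a tropomyosin). In receptor-positive cells Acta2 had 3.37 and 2.46 CPM. In the same receptor-positive cells 3 contractile genes were tested and 2 were higher. These were Cald1 (caldesmon) with 42.3 and 79.2 CPM and Smtn (smoothelin) with 11.7 and 20.8 CPM. Over all cells chosen with Ptprc and Pecam1 not used, 2 of 6 contractile genes were higher. It was 5 of 5 with Scrublet removal, 6 of 6 without dividing cells, 6 of 6 as a mean over cells and 2 of 3 after thinning. Scrublet removal left 0 control and 1 LPCAT3-AKO basal cells, and leaving out dividing cells left 0 and 2.

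Among genes of epithelial defence and chemokines 4 of 14 were higher and 0 lower, against 3.31% and 3.47% of all tested genes. The median log2 ratio was 0.20. Under Scrublet removal 7 of 11 were higher, against 10% of all tested genes. With Ptprc and Pecam1 not used 7 of 18 were higher and 1 lower, against 4.07% and 2.75%. As a mean over cells 2 of 15 were higher and 2 lower, against 285 and 304 of 6441 tested genes. The list then summed to 1940.6 and 1941.3 CPM. In cells chosen after thinning to 3000 UMIs 2 of 16 were higher and 1 lower, against 279 and 329 of 6676. Nfkbia, the inhibitor that NF-kB induces, had 230 CPM (216 to 246) and 384 CPM (370 to 397). Csf1, the macrophage growth factor, had 11.5 CPM (8.37 to 15.4) and 25.1 CPM (21.7 to 28.9), with UMIs in 18.5% and 30.5% of cells. Tnf had 19.4 and 31.9 CPM and Cxcl10 15.3 and 23.7 CPM, and 5 cells held 65% of control and 49.2% of LPCAT3-AKO Cxcl10 UMIs. Macrophages held Tnf at 247 and 210 CPM and Cxcl10 at 198 and 214 CPM, and stromal cells held Csf1 at 299 and 288 CPM. Of 9 tested interferon genes 1 was higher, Ifi27l2a with 79.5 and 140 CPM, and 1 lower, Iigp1 (an immunity-related GTPase) with 139 and 91.8 CPM. Of 11 tested genes of antigen presentation 0 passed, with a median log2 ratio of -0.18.

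Few genes of the growth factor pathways of ductal growth passed over all the chosen cells, as among all tested genes, where 6.79% passed. Of 8 tested genes of the EGF family 0 passed in either direction, with a median log2 ratio of 0.16, and the receptor Erbb3 had 88.7 and 94.8 CPM. Of 10 tested FGF and IGF genes 1, Igf1r, was higher, and of 7 Wnt and Notch genes 0 passed. Scrublet removal left 3 of 7 EGF family genes and 2 of 6 Wnt and Notch genes higher. With Ptprc and Pecam1 not used 2 of 8 EGF family genes and 3 of 11 FGF and IGF genes were higher. Immediate-early genes, which dissociation can induce, had 2 of 24 higher (Egr3 and Klf2) and 1 lower (Socs3), with a median log2 ratio of -0.02. This list changed with the cells used: under Scrublet removal 18 of 23 were higher and 0 lower, with a median log2 ratio of 1.17, and its summed level was 6304 and 13967 CPM in place of 14834 and 14682 CPM. Heat shock genes had 0 of 13 past the rule, with a median of -0.24, and 2 higher and 1 lower under Scrublet removal.

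**Figure D5:**
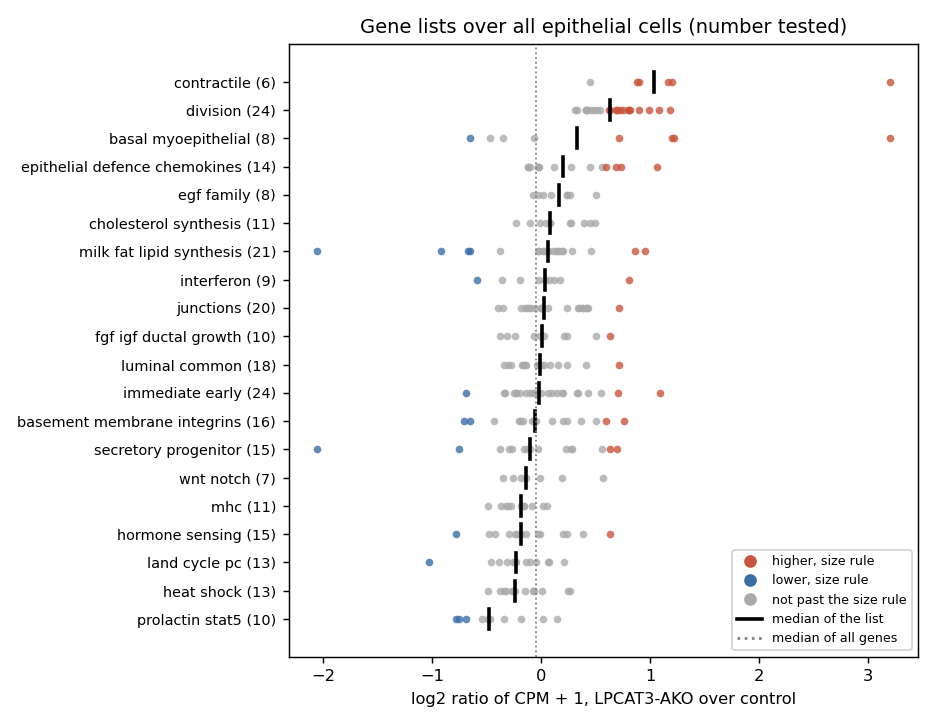
Log2 ratios of CPM + 1, LPCAT3-AKO over control, of the tested genes of each list over all epithelial cells (horizontal axis); the number tested stands beside each list, colour marks genes past the size rule, black bars are list medians and the dotted line is the median of all genes at -0.05. Division genes lie to the right with 13 of 24 past the rule, and prolactin and STAT5 genes, Prlr among them, have the lowest list median drawn, -0.48.

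Markers of other cells moved in part with these differences. The 10 markers of adipose stem and progenitor cells summed to 1918 CPM in control and 2587 CPM in LPCAT3-AKO epithelial cells, against 48317 and 53295 CPM in stromal cells and 1369 and 1302 CPM in macrophages. Of 9 tested, 4 were higher and 0 lower, against 3.31% and 3.47% of all tested genes. Among the higher were Dcn (decorin) with 341 and 537 CPM and Col1a1 with 114 and 203 CPM. With Ptprc and Pecam1 not used 9 of 10 were higher, against 4.07% of all tested genes. Sparc, Lpl, Vim, Col4a2, Hspg2 and Cald1, described above or in the basal list, are high in stromal cells too, and the part of stromal RNA in their rise was not tested. Without the cells removed by Scrublet the progenitor markers summed to 906 and 1235 CPM, and 8 of 9 were higher. The 10 macrophage markers summed to 270 and 218 CPM, against 20997 and 20959 CPM in macrophages, and 0 of 5 tested passed. Endothelial markers summed to 29.8 and 38.5 CPM, lymphoid markers to 1.27 and 2.43 CPM and Schwann cell markers to 50.7 and 58.1 CPM. Of the keratinocyte markers 2 were tested and both were higher: Sprr1a, a cornified envelope protein, with 46.4 CPM (39.9 to 53.7) and 165 CPM (156 to 174), and Sbsn with 17.3 and 31.8 CPM. Sprr1a had 0.282 and 1.14 CPM in stromal cells and a UMI in 13.4% and 24.5% of epithelial cells. In the epithelium 5 cells held 71.4% of control and 51.6% of LPCAT3-AKO Sprr1a UMIs.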

How the data were processed

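The files the authors deposited give, for each barcode and gene, UMI counts as whole numbers without normalization. Cell Ranger 6.1.2, Seurat 4.10 and the mm10 build are named in the submitters' processing notes, and the counts show no step of Seurat. The other deposited columns are gene and barcode names. Each matrix lists 32285 genes. Where identifiers shared a symbol, 38 symbols in all, 1 identifier was used. The control library held 111669076 and the LPCAT3-AKO library 119355147 UMIs.

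UMIs were summed over cells and divided by their total. Shares carry exact Clopper-Pearson, CPM exact Poisson and ratios exact binomial 95% intervals, and the floor for an undetected gene is 3 counts. The interval of a ratio treats both counts as rates, so for a ratio of shares it is wider than needed. Scrublet in scanpy 1.11.5 scored doublets, and the highest scores were removed at 0.8% of cells per 1000 kept cells, as an alternative. Named genes were taken from the 7 at each end of the log2 ratios that passed the rule, found in 10% or more of cells with no cell above 25% of UMIs, without mitochondrial, ribosomal, predicted, haemoglobin, immunoglobulin or sex-linked genes or markers of other cells; some genes that met a naming rule are not reported here. Identity lists could be named in full, and other lists by up to 5 members. The cells and lists were chosen with earlier results of these data known. Python 3.11.15, numpy 2.4.6 and scipy 1.17.1 were used.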

Additional observations from a re-analysis of the deposited data

Results flagged for a closer look

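For 3 genes the log2 ratio was past the size rule in epithelial cells and, with the opposite sign, in another cell type. The difference between cell types was not tested, since each library is 1 sample. Nfkbia, induced by NF-kB, had 0.73 in epithelial cells and -0.62 in stromal cells. Socs3, an inhibitor of cytokine receptors, had -0.69 in epithelial cells and 1.17 in stromal cells, but its epithelial value was 0.61 without the cells removed by Scrublet and -0.14 without dividing cells. Cxcl10, an interferon-induced chemokine, had 0.60 in epithelial cells and -0.67 in endothelial cells. In the epithelium 5 cells held 65% of its control and 49.2% of its LPCAT3-AKO UMIs.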

How the results depend on the processing

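Without the cells removed by Scrublet the ratio of epithelial shares was 2.49, the control basal share 0%, the control receptor-positive share 98.9%, and 625 genes were higher and 612 lower over all epithelial cells (622 and 605 in receptor-positive cells); Socs3 reversed to 0.61. Without cells holding stromal or macrophage UMIs, 16 in each library, the ratio was 1.07, both basal shares were 0%, the LPCAT3-AKO receptor-positive share was 81.2%, and 126 genes were lower in receptor-positive cells. There the reversed log2 ratios were Chka 0.27, Col4a2 -0.54, Dcn -4.06, Fabp5 -4.77, Itga6 0.26, Klf2 -2.33, Lpl -4.06 and Sftpd -3.52. Dcn is among the stromal genes by which these cells were left out, so that choice itself limits its value. With 6 keratin UMIs required the control basal share was 0% and the receptor-positive share 98.7%. With cells chosen again from the thinned counts, 176 control and 275 LPCAT3-AKO cells met the rule, not the same set as above. In that set both basal shares were 0% and 329 genes were lower. At 50 CPM, which tests fewer genes, 82 were higher and 106 lower (84 and 113 in receptor-positive cells). With 2 Epcam UMIs required Acta2 was -0.17, as 1 basal cell was left out. Without dividing cells Fabp5 was -0.052 and Pclaf -0.21. Where no construction shows it, the cause was not tested. Leaving out dividing cells and dropping Ptprc and Pecam1 were chosen after seeing the data.

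Of 56 named genes past the size rule 55 kept their direction with Scrublet removal, 54 without dividing cells, 56 with Ptprc and Pecam1 not used and 44 without stromal or macrophage UMIs. Those that kept both the direction and a 1.5-fold difference numbered 54, 40, 38 and 37 in the same order, and 41 as a mean over cells. No paired analysis was possible because each group has 1 library without a replicate number, so no replicate was left out. Gene counts in basal and receptor-negative cells, and a fit weighting the fractions alike, were not run because those fractions held too few cells.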
